A study of Mus musculus with 6 samples.

Results

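The aldo-keto reductases described here are 8 genes of the 23608 in the table of transcript counts, Akr1a1, Akr1b3, Akr1b8, Akr1b10, Akr1c6, Akr1c12, Akr1c13 and Akr1c18. The family was chosen by the measured levels of Akr1c13 in the same libraries, which were higher after tamoxifen than after oil, and the members were then taken by symbol. Their differences between the groups are therefore given as descriptions, with no p-value. All 8 had a row, and 5 of them passed the filter on low counts and were among the 11614 genes tested. The filter kept genes with enough counts in at least as many libraries as the smaller group, so the 5 are not the whole family.

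The cells were mouse leukaemia cells driven by AE9a, a shortened AML1-ETO fusion protein, whose gene was delivered together with GFP by a retrovirus into fetal liver cells of Usp18+/f UBCER-Cre mice. They were grown in C57BL/6 recipients, and GFP+ Lin- c-Kit+ cells were sorted from the spleen at day 3 of injections of corn oil or of tamoxifen dissolved in it. Libraries labelled oil are Usp18+/f and libraries labelled tamoxifen are Usp18+/D, meaning that the floxed copy of Usp18 is labelled as removed; Usp18 is the gene of an ISG15 protease that also restrains type I interferon receptor signalling. The cells of both groups began with 1 floxed copy of Usp18 and carry UBCER-Cre, a tamoxifen-activated recombinase made in every tissue. Mice of the study were of both sexes and 8 to 12 weeks old, and the age of each recipient was not given in the sources used here. There were 3 libraries in each group, called here by the numbers of their columns, oil 1, oil 3 and oil 4 and tamoxifen 1, tamoxifen 2 and tamoxifen 4. No group received tamoxifen without the floxed allele, so the drug, the active Cre and the loss of a Usp18 copy cannot be told apart.

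Each library held 17118964 to 20741399 counts. Usp18 measured 9.12, 11 and 11.2 CPM (counts scaled to the size of the library) in the oil libraries and 15.1, 28.0 and 19.4 CPM in the libraries labelled tamoxifen, a log2 fold change of 1.0 (SE 0.23; edgeR quasi-likelihood test, Benjamini-Hochberg adjusted p = 0.0739). The targeted gene was thus not lower where a copy is labelled as removed, and its row does not separate the alleles. On the leading principal component, which carried 65.1% of the variance, the oil libraries lay between -31.1 and -23.4, tamoxifen 1 and tamoxifen 2 at 37.3 and 47.5, and tamoxifen 4 apart from both at -2.99. Of 8 progenitor markers 6 were tested and 1 was called higher, the stem cell antigen gene Cd34, beside 1.75% of all genes tested. Cd34 averaged 9.94 CPM in oil and 96.3 CPM in tamoxifen. Kit measured 439 to 451 CPM in oil and 447 to 782 CPM in tamoxifen. Myb averaged 386 and 408 CPM and Gata2 500 and 588 CPM, and these 3 genes were not called. The granule protease gene Elane was at 0 in every library, and Mpo had at most 3.5 counts. Summed mast cell and basophil markers were 2380 to 2640 CPM in oil and 3110 to 6840 CPM in tamoxifen. Of the 10 genes 9 were tested and 2 were called higher, Fcer1a and Tpsb2, beside the same 1.75% of all genes. Mrgprb1 was at 0 throughout. Hdc and Ms4a2, the most abundant in oil at means of 1140 and 896 CPM, overlapped between the groups and were not called. Their log2 fold changes were 0.58 and -0.04. Cma1 and Cpa3, next in abundance in oil, were not called either, but their groups did not overlap. Cma1 averaged 269 CPM in oil and 1200 CPM in tamoxifen, a log2 fold change of 2.16. Cpa3 averaged 132 and 571 CPM, a log2 fold change of 2.11. The less abundant Mcpt4 and Prss34 overlapped between the groups. Tpsb2 averaged 0.237 CPM in oil and 4.45 CPM in tamoxifen, a small part of the sum. Macrophage markers summed to 4.56 to 8.70 CPM and 7.07 to 14.8 CPM. Neutrophil, B cell, T and NK cell and hepatocyte markers each summed to less than 1 CPM in every library, with S100a8, Ly6g, Ms4a1, Cd3e and Alb at 0. In these bulk libraries, fewer cells of a type and less RNA per cell cannot be told apart.

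Aldo-keto reductases use NADPH to reduce aldehydes and ketones to alcohols, and several of them also run the reverse reaction on hydroxysteroids. The Akr1a and Akr1b branches work mainly on aldehydes and sugars, among them glucuronate and glucose, whereas the Akr1c branch works mainly on steroids, prostaglandins and foreign carbonyl compounds. In the mouse, the Akr1c genes arose by repeated duplication and lie side by side on chromosome 13, so that near copies are common in the family.

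Akr1c12 and Akr1c13, dehydrogenases of hydroxysteroids and foreign alcohols, are the nearest such copies, and their sequences are shown first because the counts of both depend on telling them apart. Akr1c13 (ENSMUSG00000021213) lies on the plus strand at chr13:4191150-4205596 of GRCm38 and Akr1c12 (ENSMUSG00000021211) on the minus strand at chr13:4268176-4279433, with 88.3 kb between their 5′ ends. Their coding sequences in the GENCODE M21 annotation matched at 932 of 969 bases, an identity of 96.2%, against 77.8% between Akr1c12 and Akr1c19, the next closest gene. The stretch of 120 coding bases with the most differences, bases 292 to 411 of the coding sequence, is printed with the 14 differing bases in capitals.
Akr1c12: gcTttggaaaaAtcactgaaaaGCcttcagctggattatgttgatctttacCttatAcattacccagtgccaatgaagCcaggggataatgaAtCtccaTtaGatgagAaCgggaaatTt
Akr1c13: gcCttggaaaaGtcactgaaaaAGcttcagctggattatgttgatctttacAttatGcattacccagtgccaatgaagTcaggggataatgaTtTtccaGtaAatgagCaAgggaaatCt
The 37 differing bases ran from base 20 to base 960, and the longest coding run without a difference was 228 bases. A window of 150 bases, the length of a read, held at least 1 difference at 90.4% of the 820 positions in the coding sequence. Over all exons the genes had 79 stretches of 150 bases in common, which was 7.1% of the 1112 of Akr1c12 and 5.6% of the 1411 of Akr1c13. Neither gene had such a stretch in common with any other annotated transcript, so a read of that length from these exons had at most the other member of the pair as a second perfect match.

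The promoters of the pair were nearly as alike, with 284 identical bases of 296 aligned, an identity of 95.9%, whereas no other pair of family promoters compared exceeded 66.2%. They are shown because both genes were higher after tamoxifen, as 250 bases before to 50 bases after the RefSeq start on GRCm38.p6, with capitals for bases that differ or have no partner in the other promoter. The Akr1c12 promoter is chr13:4279350-4279649 on the minus strand and the Akr1c13 promoter chr13:4190937-4191236 on the plus strand.
Akr1c12 promoter: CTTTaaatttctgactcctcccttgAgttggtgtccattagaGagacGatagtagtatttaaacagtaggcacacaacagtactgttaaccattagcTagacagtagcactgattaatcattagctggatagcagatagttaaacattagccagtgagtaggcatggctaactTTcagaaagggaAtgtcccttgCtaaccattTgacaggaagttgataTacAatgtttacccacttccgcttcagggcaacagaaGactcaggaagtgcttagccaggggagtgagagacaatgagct
Akr1c13 promoter: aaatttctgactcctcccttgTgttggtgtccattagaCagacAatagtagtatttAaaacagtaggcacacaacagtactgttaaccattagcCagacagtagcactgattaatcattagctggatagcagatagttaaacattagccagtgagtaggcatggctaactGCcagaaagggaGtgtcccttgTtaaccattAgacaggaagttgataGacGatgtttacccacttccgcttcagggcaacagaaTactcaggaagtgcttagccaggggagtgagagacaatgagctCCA
RefSeq promoters were matched for 7 of the 8 members, Akr1b3 being without an entry, and were searched on both strands for 4 short motifs. The core of the antioxidant response element, TGACNNNGC, was in none of the 7 and in 12.5% of the 27025 promoters of the table. The AP-1 site TGANTCA was likewise in none of the 7 and in 7.9% of all promoters. CCAAT was in the promoter of Akr1c6 alone, against 37.9% of all, and TATAAA in those of Akr1b8 and Akr1c6, against 14.2% of all. The promoters of Akr1c12 and Akr1c13 thus held none of the 4 motifs in this window, which says nothing of the factors that bind elsewhere.

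Akr1c13 rose in the libraries labelled tamoxifen, and Akr1c12 was also higher there, by a larger but far less even amount. Akr1c13 measured 10.4, 10.6 and 10.5 CPM in oil 1, oil 3 and oil 4 and 34.3, 35.5 and 25.8 CPM in tamoxifen 1, tamoxifen 2 and tamoxifen 4. The oil libraries were almost level, all 3 tamoxifen libraries lay above them, and tamoxifen 4 was the lowest of these. The means were 10.5 ± 0.116 CPM and 31.9 ± 5.28 CPM (SD, n = 3 each), which was 3.04-fold higher after tamoxifen, or 1.60 on the log2 scale (SE 0.15). It was the only 1 of the 5 tested members called higher at an adjusted p under 0.05 in the edgeR fit over all genes, in which 1.75% of genes were called higher and 2.01% were called in either direction, and none of the 5 was called lower. Nothing is read from that count, because the rule that chose the family used this contrast. Without oil 1 or without oil 4 the same fit no longer called Akr1c13, with log2 fold changes of 1.59 and 1.60. Each of those fits called 8 genes higher and 0 lower over all genes.

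Akr1c12 measured 2.28, 2.08 and 6.12 CPM in oil and 20.1, 29.3 and 8.20 CPM in tamoxifen. Oil 4 was well above the other oil libraries and tamoxifen 4 well below the other tamoxifen libraries, yet the ranges did not overlap. The means were 3.50 ± 2.28 CPM and 19.2 ± 10.6 CPM (SD, n = 3 each), which differed 5.49-fold, or by 2.46 on the log2 scale (SE 0.55), and the gene was not called. Without tamoxifen 4 it was called, with a log2 fold change of 2.82. That fit called 2278 of 11851 genes higher and 2024 lower, so the call is not particular to Akr1c12. Among the 5 tested members, Akr1c12 and Akr1c13 were the 2 whose CPM ranges did not overlap between the groups, beside 25.1% of all genes tested.

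**Figure D1:**
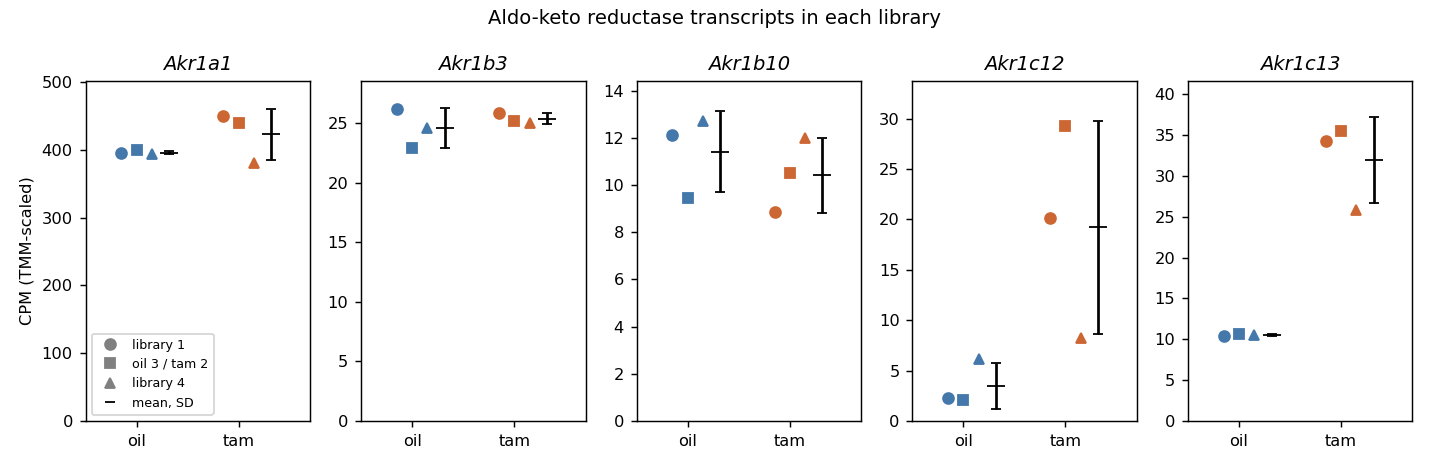
CPM of the 5 tested aldo-keto reductases (y axes, each from 0) in the oil and tamoxifen (tam) libraries; points are libraries, with the symbol giving the column number, and bars are the mean and SD of 3 libraries. Akr1c13 lies at 10.4 to 10.6 CPM in oil and 25.8 to 35.5 CPM in tamoxifen, Akr1c12 is spread widely in both groups, and Akr1a1, Akr1b3 and Akr1b10 overlap between the groups.

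The pair also differed in how evenly the libraries of a group expressed it. The coefficient of variation (CV, SD over mean) of Akr1c12 was 65.2% in oil and 55.1% in tamoxifen, at the 99.5th and 97.4th percentiles of 11136 genes with a mean of at least 1 CPM. For Akr1c13 it was 1.11% in oil, at the 2.64th percentile, and 16.6% in tamoxifen, at the 59.1th percentile. Counting error alone would give Akr1c13 a CV of 7.03% in oil and Akr1c12 one of 12.2%, so the evenness of Akr1c13 in oil is finer than its counts can resolve. The median gene had a CV of 6.85% in oil and 13.9% in tamoxifen. Hence the highest oil library exceeded the lowest 2.94-fold for Akr1c12 and 1.02-fold for Akr1c13, and within tamoxifen these ratios were 3.57 and 1.38. Over the 6 libraries the log2 CPM of the pair correlated with r = 0.91, given as a description, since the libraries fall into groups and reads from identical stretches could count for either gene.

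The balance between the copies was not fixed within a group. Akr1c12 contributed 17.9% of the counts of the pair in oil 1 (95% exact Clopper-Pearson interval 13.1 to 23.5%), 16.5% in oil 3 (12.2 to 21.5%) and 36.7% in oil 4 (31.5 to 42.2%). In tamoxifen 1 it contributed 36.9% (33.9 to 40.0%), in tamoxifen 2 45.2% (42.2 to 48.2%) and in tamoxifen 4 24.1% (20.7 to 27.6%). Oil 4 therefore resembled tamoxifen 1 in this share and tamoxifen 4 lay nearer to oil 1 and oil 3, so that the groups overlapped. These intervals cover counting error only and take no account of how reads that match both genes were assigned. Adding the rows of the pair removes the effect of that assignment only if each shared read was counted once in all. A read counted in full in both rows would be repeated in the sum, and the division of reads was not stated. The summed level was 12.6, 12.6 and 16.7 CPM in oil and 54.4, 64.8 and 34.0 CPM in tamoxifen, a log2 fold change of 1.87 (SE 0.24), with all tamoxifen libraries above all oil libraries.

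**Figure D2:**
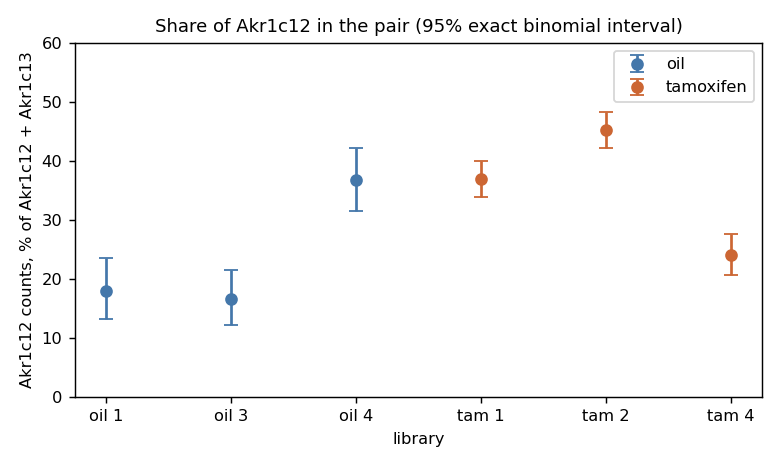
Akr1c12 counts as a percentage of the Akr1c12 and Akr1c13 counts together (y axis) in each of the 6 libraries (x axis); bars are 95% exact binomial intervals. Oil 4, at 36.7%, lies with tamoxifen 1, at 36.9%, while tamoxifen 4, at 24.1%, lies between the other oil libraries and the other tamoxifen libraries.

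The genes around the pair were nearly silent. The GENCODE annotation places 9 aldo-keto reductase genes within 560 kb on chromosome 13, and only Akr1c13, Akr1c12 and Akr1e1 passed the filter on low counts. Akr1c19, which lies between Akr1c13 and Akr1c12, had 0, 0 and 0.5 counts in oil and 4, 3 and 1.5 counts in tamoxifen, too few for a fold. Akr1c21, next to Akr1e1, had 0, 0.5 and 2 counts in oil and 4.5, 0 and 0 counts in tamoxifen. Akr1c6, a 17β-hydroxysteroid dehydrogenase of the liver, was at 0 in all 6 libraries, as were Akr1c14 and Akr1c20. Akr1c18, the 20α-hydroxysteroid dehydrogenase that inactivates progesterone, had 1 count in tamoxifen 1 and none elsewhere. A count of 0 allows up to 3 counts, which was 0.145 to 0.177 CPM depending on the library, so a level of Akr1c6 below that cannot be told from none at this depth, and a single count of Akr1c18 gives no level. At the far end of the cluster Akr1e1, which reduces 1,5-anhydrofructose, was 19.1, 17.3 and 23.8 CPM in oil and 27.1, 20.9 and 21.4 CPM in tamoxifen, with overlapping groups and a log2 fold change of 0.20 (SE 0.17; edgeR adjusted p = 0.484).

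**Figure D3:**
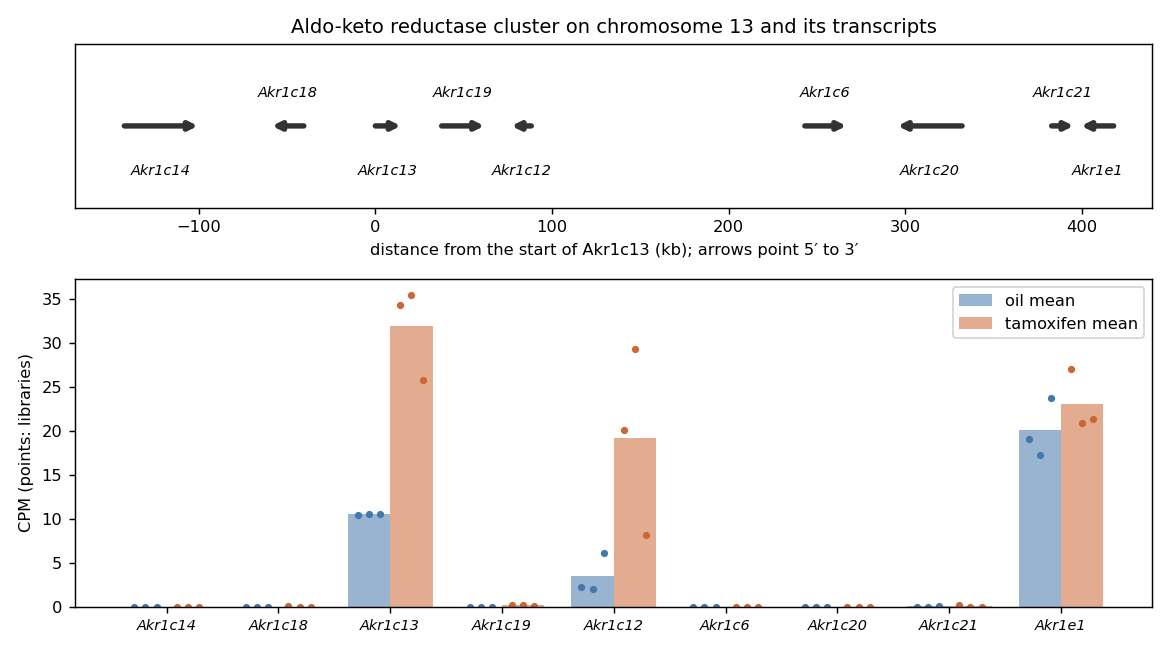
Upper panel, aldo-keto reductase genes of the chromosome 13 cluster by distance from the start of Akr1c13 (kb), with arrows pointing 5′ to 3′; lower panel, their mean CPM in oil and tamoxifen (bars) with the libraries as points. Of the 9 genes, Akr1c13, Akr1c12 and Akr1e1 stand above the axis, and the other 6 stay at 4.5 counts or fewer in every library.

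Akr1a1, aldehyde reductase, which reduces glucuronate on the way to vitamin C in mice, was the most abundant member in every library, and its groups overlapped. It lies at chr4:116636510-116651680 on the minus strand and measured 396, 400 and 394 CPM in oil and 450, 439 and 380 CPM in tamoxifen. Tamoxifen 1 and tamoxifen 2 were above the oil libraries and tamoxifen 4 below them. The log2 fold change was 0.09 (SE 0.09), with means of 396 ± 2.81 CPM and 423 ± 37.4 CPM (SD, n = 3 each). Akr1a1 made up 88.0 to 89.9% of the summed CPM of the 8 members in oil and 81.4 to 84.3% in tamoxifen. With it left out, the members summed to 51.0, 45.0 and 54.0 CPM in oil and 89.1, 100 and 71.0 CPM in tamoxifen.

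Of the Akr1b branch, Akr1b3, the aldose reductase that turns glucose into sorbitol in the polyol pathway, was 26.2, 22.9 and 24.6 CPM in oil and 25.9, 25.2 and 25.0 CPM in tamoxifen. The tamoxifen libraries lay within the range of the oil libraries, with a log2 fold change of 0.05 (SE 0.11). Akr1b10, an aldose reductase-like enzyme, was 12.1, 9.45 and 12.7 CPM in oil and 8.84, 10.5 and 12 CPM in tamoxifen, again with overlapping groups and a log2 fold change of -0.13 (SE 0.18). Akr1b8, the other aldose reductase-like member, had 1 count in oil 1 and none in the other 5 libraries. These 3 genes lie on chromosome 6, Akr1b3 at chr6:34302434-34317478 on the minus strand and Akr1b8 and Akr1b10 at chr6:34354119-34368463 and chr6:34384218-34396950 on the plus strand.

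The level of Akr1b3 carries a limit of its own, since its row and that of a processed pseudogene, Gm6644 at chr1:55444074-55445024, were nearly equal in every library. Gm6644 differs from the Akr1b3 coding sequence at 3 of 948 bases, and 55.9% of the 150-base coding stretches of Akr1b3 occur in it unchanged. Its row held 449, 455.5 and 458 counts in oil and 456, 401 and 438.5 counts in tamoxifen, against 465.5, 471.5 and 478.5 and 471.5, 426.5 and 453 counts for Akr1b3. The pseudogene was thus listed at 94.0 to 96.8% of Akr1b3 in every library, a difference of 14.5 to 25.5 counts, and the level of either gene alone is uncertain. The rows added together gave 44.9 to 51.5 CPM and a log2 fold change of 0.04 (SE 0.09). Akr1a1, Akr1b8, Akr1b10, Akr1c6 and Akr1c18 had no 150-base stretch in common with another annotated transcript.

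Between genes, levels were compared as CPM per kilobase of exon. In oil the order was Akr1a1 at 144 (range over 3 libraries 143 to 145), Akr1c13 at 7.31 (7.22 to 7.37), Akr1b10 at 3.23 (2.67 to 3.59), Akr1b3 at 2.93 (2.73 to 3.12) and Akr1c12 at 2.77 (1.65 to 4.86) CPM per kilobase. Akr1a1 and Akr1c13 stood clear of their neighbours, whereas the ranges of Akr1b10, Akr1b3 and Akr1c12 overlapped and their order is not resolved. In tamoxifen Akr1c13 was again second, at 22.2 (18.0 to 24.7) CPM per kilobase, but its range now overlapped that of Akr1c12, at 15.2 (6.51 to 23.2). Akr1b3 and Akr1b10 followed at 3.02 (2.99 to 3.09) and 2.95 (2.50 to 3.39) CPM per kilobase. Divided by the longest transcript in place of all exons, Akr1b10 and Akr1c13 came to 8.32 and 8.31 CPM per kilobase in oil, so that the place of Akr1c13 there depends on the gene model used. The oil level of Akr1a1 was at the 98.2th percentile of the tested genes with a length and those of Akr1c13 and Akr1c12 were at the 44.9th and 25.0th percentiles.

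The other aldo-keto reductases were described from a list of 13 genes, of which 12 had a row and 4 were tested. None of the 4 was called in either direction, none had an unadjusted p under 0.05, beside 20.6% of all genes tested, and their median log2 fold change was 0.14, beside 0.00 over all genes tested. The most abundant of them, Kcnab2, a potassium channel beta subunit with an aldo-keto reductase fold, had a log2 fold change of 0.26 (SE 0.13; edgeR adjusted p = 0.287). The members with the larger differences were thus the 2 Akr1c copies, as the plot of fold changes shows.

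**Figure D4:**
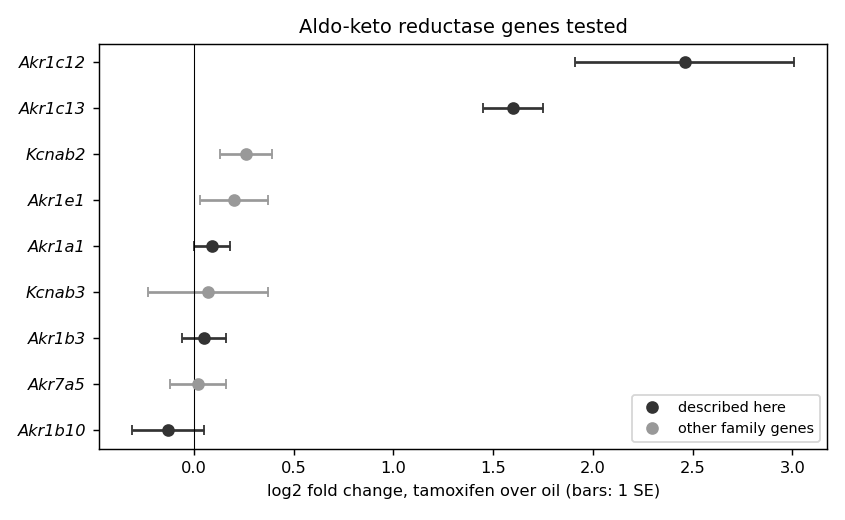
Log2 fold change, tamoxifen over oil (x axis), of the 9 aldo-keto reductase genes tested (y axis); points are edgeR estimates and bars 1 SE, dark for the 5 members described and grey for the other family genes. Akr1c12 and Akr1c13 lie at 2.46 and 1.60, and the other 7 between -0.13 and 0.26.

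Of the steroid and prostaglandin genes, 13 of 28 were tested and 2 were called higher, with a list median of 0.03. Of all genes tested 1.75% were called higher, and this share stands beside the count of each list that follows too. The lists were chosen with earlier results of these data known, so their counts and p-values are given as descriptions. Cyp11a1, which cuts the cholesterol side chain to begin steroid synthesis, rose to 944 ± 407 CPM after tamoxifen against 45.6 ± 9.47 CPM after oil (SD, n = 3 each), by 4.37 on the log2 scale (SE 0.37; edgeR adjusted p = 0.00338). Ptgs1, cyclooxygenase 1 of prostaglandin synthesis, rose from 19.1 to 41.2 CPM on average, with a log2 fold change of 1.11 (SE 0.16; edgeR adjusted p = 0.0301). Of the redox genes linked to NRF2, the oxidative stress factor, 22 of 31 were tested, 2 were called higher and none lower, with a median of 0.11. They were Hmox1, haem oxygenase 1, from 1.18 to 6.86 CPM (log2 fold change 2.53, SE 0.47; edgeR adjusted p = 0.0426), and Gsta3, a glutathione transferase, from 2.88 to 10.5 CPM (1.86, SE 0.36; edgeR adjusted p = 0.0454).

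Among aldehyde and alcohol dehydrogenases, 14 of 20 were tested and 1 was called, Aldh3a1, an aldehyde dehydrogenase that rose from 0.731 to 2.53 CPM (log2 fold change 1.77, SE 0.33; edgeR adjusted p = 0.0426), with a list median of 0.05. None of the 18 short-chain carbonyl reductases tested of 22 was called, with a median of 0.00, and the most abundant, Hsd17b11, had a log2 fold change of 0.24 (SE 0.16; edgeR adjusted p = 0.41). None of the 12 polyol and glucuronate genes tested of 14 was called, with a median of 0.03, and the most abundant, Hk1, hexokinase 1, measured 932 and 934 CPM. An unadjusted p under 0.05 (edgeR quasi-likelihood test) was reached by 5 of 13 steroid and prostaglandin genes and 8 of 22 linked to NRF2. It was reached by 3 of 14 dehydrogenases, 5 of 18 short-chain reductases and 2 of 12 polyol and glucuronate genes, beside 20.6% of all genes. When each library was left out in turn, Cyp11a1 was called in 6 of 6 fits, and Ptgs1, Hmox1, Gsta3 and Aldh3a1 only in the fit without tamoxifen 4. Over all genes that fit called 2278 higher and 2024 lower, and each of the others 8 to 16 higher and 0 lower.

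Of 11131 other genes with a mean of at least 1 CPM, 604 followed Akr1c13 with r above 0.9 in log2 CPM over the 6 libraries, which fall into their groups. The 5 most alike were Cx3cr1, the fractalkine receptor (r = 0.999), 4930429B21Rik (0.998), Cyp11a1 (0.997), Irf5, an interferon regulatory factor (0.997), and Coro2a, a coronin (0.996). Their likeness to Akr1c13 follows from the choice by correlation over these same libraries and is no separate finding. The same holds for their difference between the groups, since Akr1c13 was chosen by that contrast. Each was higher in every tamoxifen library than in every oil library, and lowest of the tamoxifen libraries in tamoxifen 4. Cx3cr1 measured 1.01, 0.969 and 0.978 CPM in oil and 7.90, 8.97 and 4.75 CPM in tamoxifen. 4930429B21Rik and Irf5 were not called (edgeR adjusted p = 0.0827 and 0.0965). Of the 5, Cx3cr1 and 4930429B21Rik drop out where a mean of at least 5 CPM is asked, and 3 remain. The sizes differed widely, from a log2 fold change of 0.43 in Irf5 to 4.37 in Cyp11a1. The summed mast cell and basophil markers given above were also above the oil range in every tamoxifen library. Of the 9 marker genes tested 2 were called higher, beside 1.75% of all genes tested. The part of these cell types in the levels of Akr1c12 and Akr1c13 was not tested.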

How the data were processed

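RNA was taken with Trizol from sorted leukaemia cells of 3 oil-treated and 3 tamoxifen-treated recipients and sequenced as paired reads of 150 bases. The authors deposited estimated counts per gene in 1 table, not normalized. The values are whole or multiples of 0.5, and how reads matching several rows were divided was not stated, which bears on near-identical genes. The submitters' processing notes name STAR, DESeq2 and mm10, and the counting program, strand setting and annotation were not given in the sources used here. The labels give groups but not whether recipients carried leukaemias of separate origin, so p-values measure the spread between these samples only.

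Counts were rounded and fitted with edgeR 4.0.16 in R 4.3.3 (filterByExpr by group, TMM factors, quasi-likelihood F test, Benjamini-Hochberg adjustment over 11614 genes, threshold 0.05). CPM used TMM-scaled totals, and correlations used a prior count of 2. Sequences and gene models came from RefSeq promoters (GRCm38.p6) and GENCODE M21 (GRCm38). Column numbers of the table differ from the sample titles for 1 library of each group, and these columns were used as members of their group. Alternatives were DESeq2 1.42.0, limma 3.58.1 with voom, other size factors, filters and unrounded counts, a replicate block and leaving out each library. The rule for named genes was all 8 members, Usp18, the called genes of each list or else its most abundant gene, and the 5 genes most correlated with Akr1c13. The members and lists were chosen with earlier results of these data known. The fit was tested on simulated data. 1 list of cell type markers is not reported here.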

Additional observations from a re-analysis of the deposited data

How the results depend on the processing

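1 member was called higher in the fit described. With the DESeq2 Wald test, without a low-count filter and with the replicate block there were 2 each, Akr1c12 being added, and leaving out single libraries gave 0 to 2. No member was called lower under any alternative. Over 14 alternatives the log2 fold change of Akr1c13 was 1.51 to 1.73, and the gene was called in 12 of them. That of Akr1c12 was 1.72 to 3.13, and it was called in 4. Nothing is read from these counts of calls, because the alternatives refit the same data and the family was chosen by this contrast. The ranges were 0.05 to 0.17 for Akr1a1, -0.26 to -0.02 for Akr1b10 and -0.01 to 0.09 for Akr1b3. Akr1b3 changed sign, to -0.01, without oil 3. The sum of Akr1b3 and Gm6644, chosen after seeing the data, gave 0.04. Over all genes, 203 were higher and 31 lower, against 743 and 221 with DESeq2, 48 and 6 with limma-voom, 372 and 61 without a filter, and 120 and 17 with a mean of at least 50 counts. Leaving out single libraries gave 8 to 2278 higher and 0 to 2024 lower, the highest of each without tamoxifen 4, and 1373 to 5501 genes at an unadjusted p under 0.05. Of the genes on the 6 other lists, 5 were called, against 10 with DESeq2, 2 with limma-voom, 2 with a mean of at least 50 counts, 7 without a filter and 1 to 34 with single libraries left out. The causes were not tested.

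Only numbers 1 and 4 occur in both groups, and same-numbered libraries deviated from their group means with correlations of -0.13 and 0.06. Deviations from means of 3 libraries cannot decide whether equal numbers share a source, which the labels do not give. With the replicate block, in which only those 4 libraries inform the group difference, 215 genes were higher, 26 lower and 4 of the list genes called, and the log2 fold changes were 1.72 for Akr1c12 and 1.51 for Akr1c13. Depth limits the silent members, Akr1b8, Akr1c6 and Akr1c18, for which 1 count was the most in any library.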
